A study of Homo sapiens with 3 samples.

Results

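The arginine methyltransferase family was examined for MYC occupancy in the parental form of U2OS, a cell line from a human osteosarcoma. The 10 genes considered were chosen by name, with earlier results of these data known. They were the 9 genes PRMT1, PRMT2, PRMT3, CARM1 (also called PRMT4), PRMT5, PRMT6, PRMT7, PRMT8 and PRMT9, together with WDR77, which encodes the obligate partner of PRMT5, and they were set among 19974 protein-coding genes. A gene was given a peak where the summit of a MYC peak lay inside its RefSeq span on GRCh38 or within 5000 bp of it. By that rule 8 of the 10 genes had a peak, each of them exactly 1, and PRMT6 and PRMT9 had none. Among all protein-coding genes 47.7% had a peak by the same rule. The rule gives a longer gene more room for a peak. The members were between 2621 and 212625 bp long, and length was not accounted for. The data come from 2 MYC immunoprecipitation (IP) libraries and 1 input library, all from parental U2OS cells fixed with 1% formaldehyde for 10 min. Fixed mouse NIH3T3 cells had been added at 10% as a chromatin reference from another species (ChIP-Rx). The deposited result is 1 list of 9818 peaks with no value for either library alone, so no value below has a replicate error, the depth is unknown, and no test between samples was possible.

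Protein arginine methyltransferases transfer methyl groups from S-adenosylmethionine to arginine side chains of histones, RNA-binding proteins and splicing factors. Type I enzymes (PRMT1, PRMT2, PRMT3, CARM1, PRMT6 and PRMT8) place both methyl groups on the same nitrogen, type II enzymes (PRMT5 and PRMT9) make symmetric dimethylarginine, and the type III enzyme PRMT7 stops at a single methyl group. MYC is a transcription factor that binds E-box DNA as a dimer with MAX, and PRMT5, which methylates the Sm proteins of the splicing machinery, has been studied in MYC-driven tumours.

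The promoters that the peaks bear on are shown first, each read from RefSeq (GRCh38.p14) as the 250 bases before and the 50 bases from the annotated start, on the strand of the gene. Capitals mark letters searched on both strands. They are the canonical E-box CACGTG, the variant E-box CACGCG, the variant E-box CATGTG, the variant E-box CACGAG, the CCAAT box and a palindrome, TCTCGCGAGA, which was the only 10-base palindrome to stand at 2 or more places in a promoter of the 10 genes. No E-box overlapped another motif searched in these promoters. The WDR77 promoter (chr1:111449207-111449506, minus strand) and the PRMT3 promoter (chr11:20387466-20387765, plus strand) are shown because they were the only promoters of the 10 genes to hold the canonical E-box CACGTG, and both lay wholly under a MYC peak.
WDR77: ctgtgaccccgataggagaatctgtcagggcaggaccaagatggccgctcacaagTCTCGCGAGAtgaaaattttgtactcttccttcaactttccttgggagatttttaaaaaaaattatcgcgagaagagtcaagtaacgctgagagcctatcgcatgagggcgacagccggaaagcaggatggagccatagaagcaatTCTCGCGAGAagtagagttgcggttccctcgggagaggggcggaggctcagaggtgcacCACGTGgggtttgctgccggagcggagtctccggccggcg
PRMT3: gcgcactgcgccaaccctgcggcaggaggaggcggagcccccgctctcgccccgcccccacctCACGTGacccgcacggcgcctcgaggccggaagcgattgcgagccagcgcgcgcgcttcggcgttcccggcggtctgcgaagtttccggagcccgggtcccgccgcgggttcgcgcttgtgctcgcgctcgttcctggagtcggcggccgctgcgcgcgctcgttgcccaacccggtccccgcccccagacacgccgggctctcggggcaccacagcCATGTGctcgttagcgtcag

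The PRMT1 promoter (chr19:49677021-49677320, plus strand) and the PRMT5 promoter (chr14:22929327-22929626, minus strand) are shown because both lay under a MYC peak, PRMT1 for 269 and PRMT5 for all 300 bases, and held no E-box of any of the 4 kinds. PRMT1 held CCAAT at 2 places and PRMT5 at 3.
PRMT1: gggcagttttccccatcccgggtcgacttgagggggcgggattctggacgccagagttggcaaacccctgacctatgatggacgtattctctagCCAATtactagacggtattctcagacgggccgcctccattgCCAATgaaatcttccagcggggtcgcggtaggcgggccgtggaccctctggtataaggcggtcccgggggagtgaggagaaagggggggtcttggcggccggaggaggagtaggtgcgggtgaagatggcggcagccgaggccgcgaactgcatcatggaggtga
PRMT5: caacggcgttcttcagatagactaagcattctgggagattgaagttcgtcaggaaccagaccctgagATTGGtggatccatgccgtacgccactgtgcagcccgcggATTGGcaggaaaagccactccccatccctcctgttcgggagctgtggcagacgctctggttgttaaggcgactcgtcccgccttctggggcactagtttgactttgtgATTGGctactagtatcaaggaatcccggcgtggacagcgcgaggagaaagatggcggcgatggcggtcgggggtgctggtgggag

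The PRMT7 promoter (chr16:68310769-68311068, plus strand) and the CARM1 promoter (chr19:10871303-10871602, plus strand) are shown as a contrast. Both held the variant E-box CACGCG, read on the gene strand as CGCGTG, but PRMT7 lay under a peak over all 300 bases and CARM1 over 0.
PRMT7: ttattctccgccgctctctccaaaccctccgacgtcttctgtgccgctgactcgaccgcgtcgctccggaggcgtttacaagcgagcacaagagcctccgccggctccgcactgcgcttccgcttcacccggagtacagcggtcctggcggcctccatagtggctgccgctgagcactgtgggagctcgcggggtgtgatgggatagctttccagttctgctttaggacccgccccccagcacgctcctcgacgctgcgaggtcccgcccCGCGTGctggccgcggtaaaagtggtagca
CARM1: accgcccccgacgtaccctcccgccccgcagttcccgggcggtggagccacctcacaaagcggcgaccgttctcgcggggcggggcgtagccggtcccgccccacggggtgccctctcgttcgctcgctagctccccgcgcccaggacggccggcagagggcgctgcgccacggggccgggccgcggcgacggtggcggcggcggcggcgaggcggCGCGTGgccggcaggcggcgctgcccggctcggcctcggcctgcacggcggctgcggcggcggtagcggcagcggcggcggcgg

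PRMT1, the main source of asymmetric dimethylarginine in human cells, had the highest peak of the family (chr19:49677052-49678105, hg38). Its fold enrichment over the control at the summit was 25.4 and its −log10 q was 334, both as the authors' peak caller gave them, which ranked it 367 by fold and 321 by −log10 q among the 9818 peaks. Every fold and −log10 q given for a peak is the authors' value. Across the list the median fold was 7.78, with quartiles of 5.58 and 11.5, so the PRMT1 peak stood well above the upper quartile. The summit lay 303 bp downstream of the annotated start and 1421 bp from the nearest end of the annotated gene (chr19:49676153-49688447), whose span opens 1118 bp upstream of that start.

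PRMT3, a cytosolic enzyme that methylates the ribosomal protein RPS2, had a peak with an 18.6-fold enrichment and a −log10 q of 256 (chr11:20387116-20388183). Its summit lay 17 bp downstream of the start, and no other gene had an end within 1000 bp of it. PRMT2, an enzyme with an SH3 domain and weak methyltransferase activity, had a peak of about the same width, 1004 bp against 1068 bp for PRMT3, but with an enrichment of 2.94-fold and a −log10 q of 10.7 (chr21:46635112-46636115). That peak ranked 9758 of 9818 by fold, and its summit lay 227 bp upstream of the start.

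CARM1, a coactivator that methylates histone H3 and splicing factors, had no peak at its start. The single peak in the gene (chr19:10879117-10879625) had its summit 7819 bp from the upstream end of the gene and 6943 bp downstream of the nearer of the 2 annotated starts. Its fold was 14.6 and its −log10 q 41.6. PRMT8, a membrane-anchored enzyme known mainly from brain, also had a peak only inside the gene (chr12:3454243-3454769, fold 7.02, −log10 q 58.2). The summit lay 73185 bp downstream of the first annotated start, 36669 bp upstream of the second, and inside the span of LOC124902862, a long noncoding RNA gene on the opposite strand. Whether these 2 sites are exonic or intronic was not analysed here. Of all protein-coding genes, 1289 (6.45%) had a summit inside the span and none within 1000 bp of an end, and in 42.6% of those a summit lay within 1000 bp of an annotated start. PRMT1 was a gene of this second kind, while CARM1 and PRMT8 were not. In the 42.6%, genes without a promoter sequence counted as having no summit at a start.

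PRMT6, a nuclear enzyme that methylates histone H3, had no peak. The summit nearest to the gene lay 1140952 bp away, at the SLC25A24 gene, and 2.98% of protein-coding genes were as far from a summit or farther. Only 1 other protein-coding gene, and no summit, lay within 100000 bp of PRMT6. Around PRMT1 there were 11 other protein-coding genes and 5 summits within that distance, but around PRMT2, which also had a peak, there were 2 and 1. PRMT9, the other gene without a peak, had 3 and 2. Any relation to gene density was not tested.

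Among the type II enzymes, PRMT5, which makes most of the symmetric dimethylarginine of the cell, had a peak near the middle of the list. Its fold was 9.25 and its −log10 q 38.7 (chr14:22928992-22929697), and 57.4% of the protein-coding genes with a summit at a gene end had a lower fold. The summit lay 157 bp upstream of the PRMT5 start and 76 bp from the start of PRMT5-DT, a divergent noncoding RNA gene whose start is 233 bp away. The tRNA gene TRR-ACG1-3 (chr14:22929701-22929773) lay 168 bp from the same summit, so the peak cannot be given to 1 of the 3 genes from the list alone.

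WDR77, the WD-repeat protein that binds PRMT5 and is needed for its activity, had a peak with a higher fold than PRMT5 itself. Its fold was 23.4 and its −log10 q was 319 (chr1:111448773-111449820), against 9.25 and 38.7 for PRMT5. The summit lay 3 bp from the WDR77 start and 211 bp from the start of ATP5PB, a mitochondrial ATP synthase subunit gene that runs in the opposite direction from a start 208 bp away. PRMT9, the other type II enzyme, which methylates the splicing factor SF3B2, had no peak. The summit nearest to PRMT9 lay 20567 bp from the gene, at the TMEM184C gene, in a peak of 3.3-fold enrichment and −log10 q 9.89. No gene of the family lay near the 5000 bp limit, since the summit farthest outside a gene that had a peak was that of PRMT2, at 227 bp.

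PRMT7, the type III enzyme, had a peak of 13.9-fold enrichment, at −log10 q 112 (chr16:68310562-68311543). Its summit lay 14 bp downstream of the first of 2 annotated starts and 87 bp from the start of SLC7A6OS, a gene in the opposite orientation whose start is 73 bp from that of PRMT7. With WDR77, this made 2 of the 5 members that had a summit at a gene end share their peak with another protein-coding gene. Among all protein-coding genes with a summit at a gene end, 32.1% did.

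**Figure D1:**
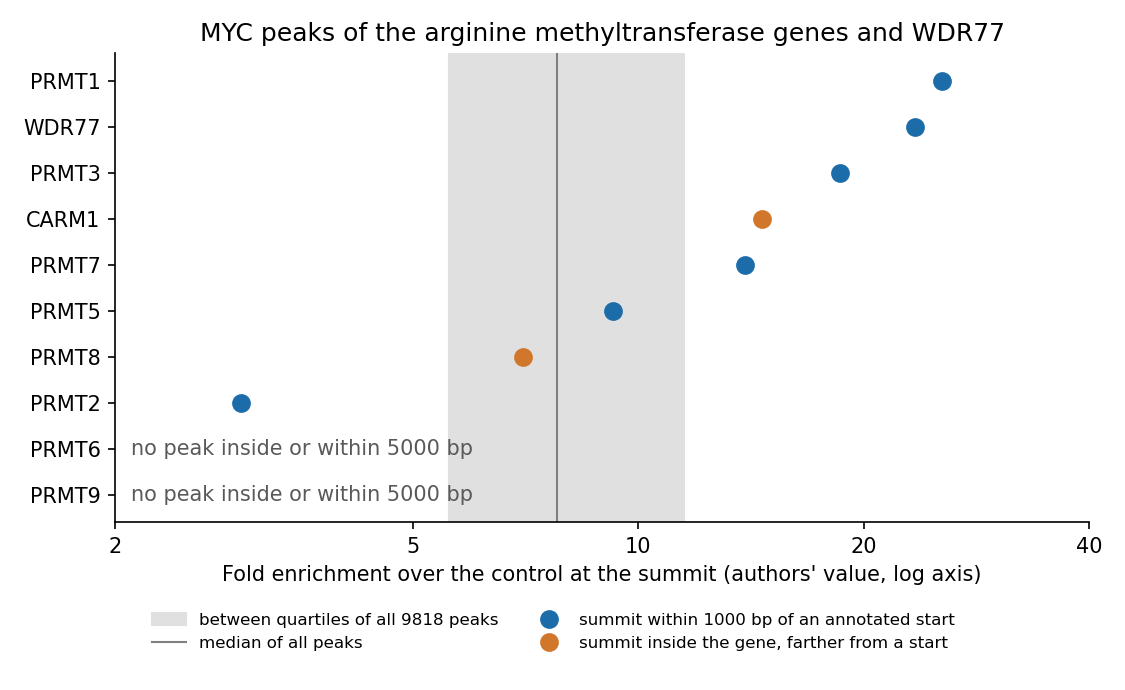
Fold enrichment over the control at the summit (log axis, the authors' values) for the peak of each gene, with the median and quartiles of all 9818 peaks as a line and a grey band. PRMT1 (25.4), WDR77 (23.4), PRMT3 (18.6), CARM1 (14.6) and PRMT7 (13.9) lie above the upper quartile of 11.5, PRMT2 (2.94) lies below the lower one of 5.58, and PRMT6 and PRMT9 have no peak.

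The folds of the members ran from 2.94 to 25.4, within a list that ran from 2.18 to 119. Both ends of that range, PRMT1 and PRMT2, were type I enzymes. Since no value has a replicate error, which neighbours in this order differ cannot be told.

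Of the 10 members, 5 had a summit no more than 1000 bp from an end of the annotated gene (PRMT2, PRMT3, PRMT5, PRMT7 and WDR77), against 37.6% of all protein-coding genes. Their median fold was 13.9, and that of all 7510 protein-coding genes with a summit at a gene end was 8.31. Measured from annotated starts alone, PRMT1 was added and the count was 6 of 10, against 41.5% of the 15812 protein-coding genes with a promoter sequence. PRMT1 was also added with a window of 5000 bp around gene ends (6 members, against 44% of all protein-coding genes) and where any base of the peak, not the summit alone, had to fall within 1000 bp (6, against 39.3%), and a window of 500 bp gave the same 5 members, against 33%. In the stronger 50% of peaks by −log10 q, 3 members had a summit at a gene end, against 21.3%, and 5 had a peak inside or within 5000 bp, against 27.7%. These counts describe a family of 10 genes and were not tested.

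**Figure D2:**
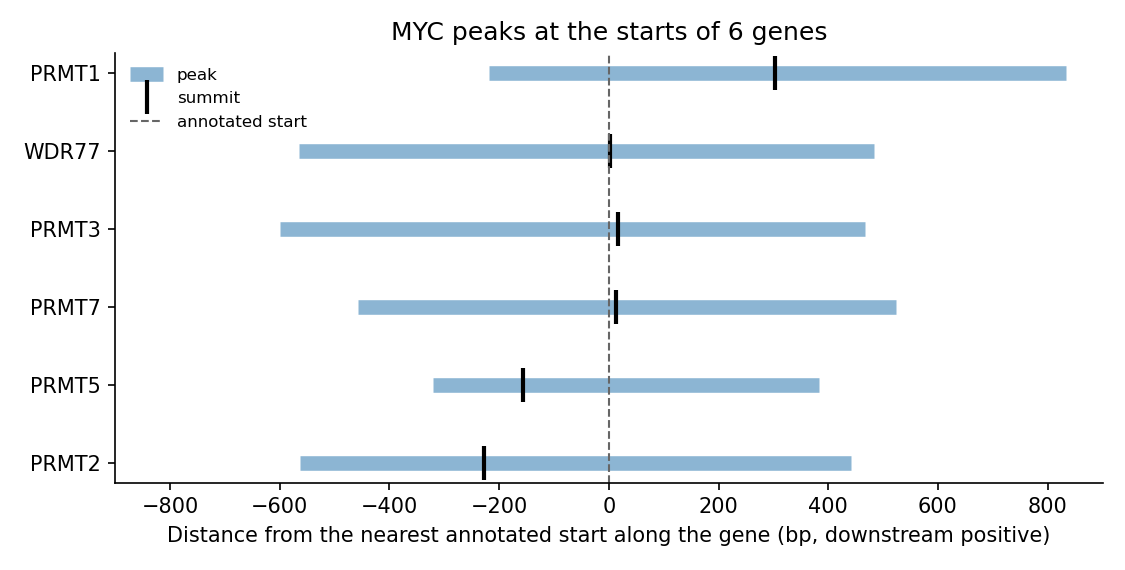
Extent (bars) and summit (black ticks) of the 6 peaks whose summit lay within 1000 bp of an annotated start, by distance in bp along the gene from that start. The summits of WDR77, PRMT7 and PRMT3 lie at 3, 14 and 17 bp, those of PRMT5 and PRMT2 lie 157 and 227 bp upstream, and that of PRMT1 lies 303 bp downstream.

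The position of the summit varied among the 6 genes with a peak at a start. WDR77, PRMT7 and PRMT3 had summits within 17 bp of the start. Over the 6560 protein-coding genes with a summit within 1000 bp of a start, the median distance was 129 bp, with quartiles of 46 and 273 bp, and 2.16%, 8.43% and 9.86% of those genes had a summit as close as those of WDR77, PRMT7 and PRMT3. The PRMT5 and PRMT2 summits lay upstream, and the PRMT1 summit was farther downstream than the upper quartile of distances. The peaks of PRMT1, PRMT3, WDR77, PRMT2 and PRMT7 were between 982 and 1068 bp wide, and those of PRMT5, PRMT8 and CARM1 were 706, 527 and 509 bp wide, beside a median of 747 bp for the whole list.

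Fold and −log10 q placed CARM1 differently. Its peak ranked 1480 by fold and 5524 by −log10 q. Of the 701 peaks whose fold was within 10% of that of CARM1, 4 had a lower −log10 q, and the median of these 701 peaks was 119 (quartiles 86.3 and 165), against 41.6 for CARM1. Their median width was 924 bp, against 509 bp for CARM1. PRMT8, the other gene with a peak only inside it, had a −log10 q of 58.2, above 81.1% of the 1514 peaks of like fold, whose median was 40.9. PRMT3, WDR77 and PRMT1 were also high for their fold, above 83.6%, 75.9% and 70.6% of the peaks of like fold, and PRMT2 was above 51%. PRMT5 was low for its fold, above 13.8% of 1286 peaks of like fold, and PRMT7, with 50% of 768 peaks below it, was in the middle.

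**Figure D3:**
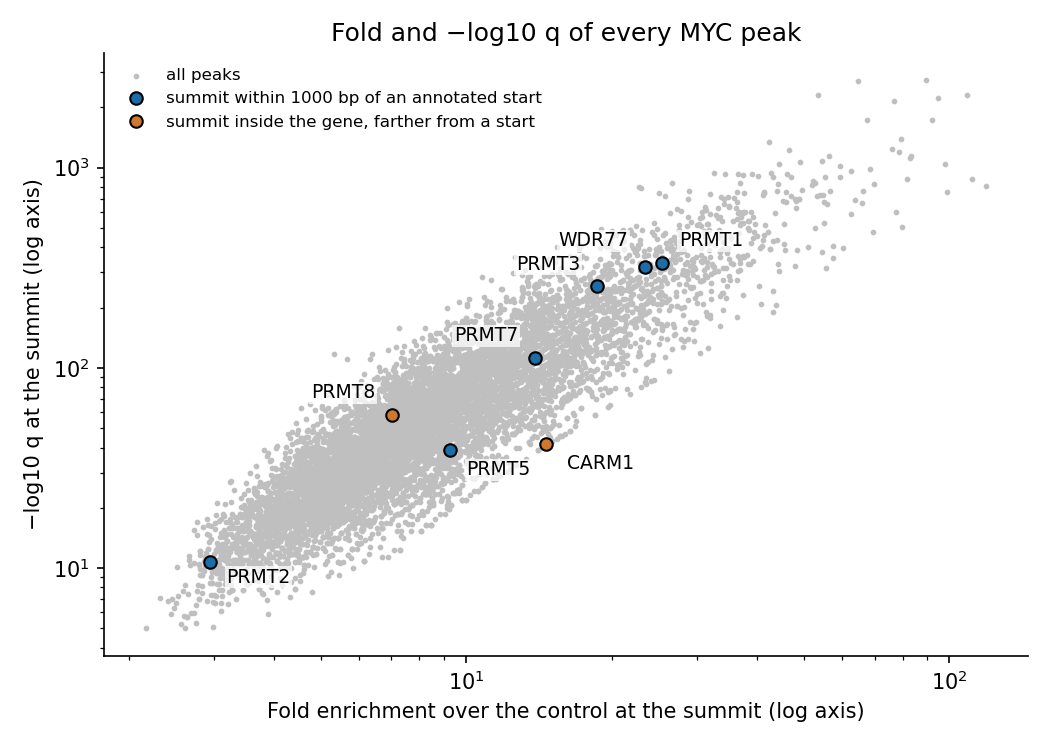
Fold enrichment over the control (x, log axis) against −log10 q (y, log axis) at the summit of each of the 9818 peaks (grey), with the 8 peaks of the family marked by whether the summit lay within 1000 bp of an annotated start. CARM1 (14.6 and 41.6) lies at the lower edge of the cloud, while PRMT1, WDR77 and PRMT3 lie in its upper part.

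The canonical E-box CACGTG stood in the promoters of WDR77 and PRMT3 printed above, 2 of the 10 genes. It stood in 7.27% of 34961 RefSeq promoter sequences of the same length, and, per gene, in 15.1% of the protein-coding genes with a summit within 1000 bp of a start and 7.9% of those without. In WDR77 the E-box lay at chr1:111449241-111449246, 10 bp downstream of the start and 7 bp from the MYC summit. In PRMT3 it lay at chr11:20387529-20387534, 187 bp upstream of the start and 199 bp from the summit. Of 3672 summits that fell inside a promoter sequence, 6.21% had CACGTG within 10 bp, so the WDR77 summit was among the few and the PRMT3 summit was not.

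The variant E-boxes were placed differently. CACGCG, found in 11.4% of promoter sequences, lay in PRMT7 at chr16:68311039-68311044, 20 bp downstream of the first start and 6 bp from the summit. Of the 3672 summits, 7.11% had CACGCG within 10 bp. Per gene, it stood in 25.5% of protein-coding genes with a summit at a start and 12.8% of those without. In CARM1 it lay 34 bp upstream of the first start and 7848 bp from the nearest summit. CATGTG, found in 11.1% of promoter sequences, lay 7 bp from the PRMT2 summit (written CACATG on the gene strand, chr21:46635435-46635440) and 13 bp from the PRMT3 summit (chr11:20387746-20387751). It also stood in the promoter of the first PRMT8 start, away from any peak. Within 10 bp of a summit CATGTG was found in 1.03% of the 3672. Counted per gene, CATGTG stood in 8.73% of protein-coding genes with a summit at a start and 13.4% of those without. CACGAG, found in 6.8% of promoter sequences and 9.63% of protein-coding genes, was in none of the members' promoters. A promoter with no match says only that these letters are not in the window.

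TCTCGCGAGA stood at 2 places in the WDR77 promoter, at chr1:111449442-111449451 and chr1:111449296-111449305, which are 189 and 43 bp from the summit and both under the peak. At least 1 copy was found in 149 (0.426%) of the promoter sequences, and 8 had 2 or more. By gene, it stood in 1.4% of protein-coding genes with a summit at a start and 0.249% of those without. CCAAT stood in the promoters of PRMT1, PRMT5 and PRMT8 and in 34.6% of all promoter sequences. The shares of protein-coding genes with CCAAT were 42.5% with a summit at a start and 41.9% without. In PRMT5 the 3 copies lay 14, 22 and 122 bp from the summit, and the 2 copies of PRMT1 lay 414 and 455 bp from its summit. All 5 copies were under the peak of their gene. TCTCGCGAGA and CCAAT were added to the search after the sequences had been seen.

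The number of CpG dinucleotides overlapped between promoters with and without a peak in this family. The promoters under a peak at a start had between 20 (PRMT5) and 48 (PRMT3) in 300 bases. The promoters without a peak had 56 and 22 at the CARM1 starts, 33 in PRMT9, 25 in PRMT6, and 1 and 30 at the PRMT8 starts. Over all protein-coding genes, taking the promoter richest in CpG, the median was 30 with a summit at a start and 16 without. The CARM1 promoter, with a GC content of 82.3%, was the richest of the members, and WDR77, with 54.7%, was the poorest of those under a peak.

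Genes that supply, assist or are targets of these enzymes were described in the same way, by a summit within 1000 bp of a gene end, which 37.6% of all protein-coding genes had. The lists were chosen with earlier results of these data known, and their counts were not tested. Unlike for the members, whether a listed gene shared its peak with a neighbouring gene was not analysed here. Among the PRMT5 adaptors, which direct the enzyme to its substrates, CLNS1A (fold 17.3) and RIOK1 (14.8) had a summit and COPRS had none. All 4 of the Sm and LSm genes SNRPB (13.4), SNRPD1 (46.1), SNRPD3 (13.4) and LSM4 (8.4), whose proteins carry symmetric dimethylarginine, had one. Each of these folds except that of LSM4 was above the 9.25 of PRMT5.

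Of the 17 genes for glycine-arginine-rich and other substrates, which include nucleolar and RNA-binding proteins, 15 had a summit, against 37.6% of all protein-coding genes. Their median fold was 27.3, against 8.31 for all such protein-coding genes, with a range from 3.2 (PABPN1) to 43.1 (RPS2, a small ribosomal subunit protein and the PRMT3 substrate). By −log10 q RPS2 was followed by the stress granule protein gene G3BP1 (30.7) and the splicing regulator gene HNRNPA1 (36.7). TAF15 and HNRNPA2B1 had no summit at an end, although a summit lay 1410 bp outside HNRNPA2B1. RPS2 and PRMT3, substrate and enzyme, had folds of 43.1 and 18.6.

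S-adenosylmethionine supply and methionine salvage genes had a summit in 7 of 12 cases, against 37.6% of all protein-coding genes, with a median fold of 14.4, against 8.31. By −log10 q the first were MTR, methionine synthase (25.6), MAT2A, the S-adenosylmethionine synthase of most tissues (24.3), and ENOPH1, a salvage enzyme (14.4). MAT1A and BHMT, known mainly from liver, had none at an end, nor had MAT2B, AHCY and MTRR. AHCY (19) and MAT2B (9.71) had a summit within 1000 bp of an annotated start inside the span, and MTRR (10.7) had one inside the gene, where its starts were not analysed here. Counted from starts, 8 of the 11 genes with a promoter sequence had a summit. Among the 7 with a summit at a gene end, MRI1 (5.71) was not in this count, since no summit lay within 1000 bp of its annotated start. MTAP, which clears the methylthioadenosine that inhibits PRMT5, had a fold of 16.4.

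Tudor domain readers of methylated arginine had a summit in 2 of 10 cases, SND1 (16.3) and SMNDC1 (6.12), against 37.6% of all protein-coding genes. With a window of 5000 bp the count was 4, against 44%, and with one of 500 bp it was 1, against 33%. TDRD3 (13.3) had its summit within 1000 bp of an annotated start inside the span, and TDRKH had one 2937 bp outside the gene. SMN1, STK31, TDRD1, TDRD6, TDRD7 and TDRD9 had no peak inside or within 5000 bp, and for SMN1 this is uncertain because a near-identical copy, SMN2, can take or exclude its reads. Several of these Tudor genes are known mainly from germ cells.

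PRMT1 interactors and CARM1 coactivator partners had a summit in 4 of 9 cases, NCOA3 (10.8), CREBBP (7.97), EP300 (10.7) and BTG2 (5.87), against 37.6% of all protein-coding genes. In the stronger 50% of peaks the count was 1, NCOA3, against 21.3%. TOB1 (4.53) had a summit within 1000 bp of an annotated start and TOB2 (15.5) one 1632 bp outside the gene, while BTG1, NCOA1 and NCOA2 had none inside or within 5000 bp.

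**Figure D4:**
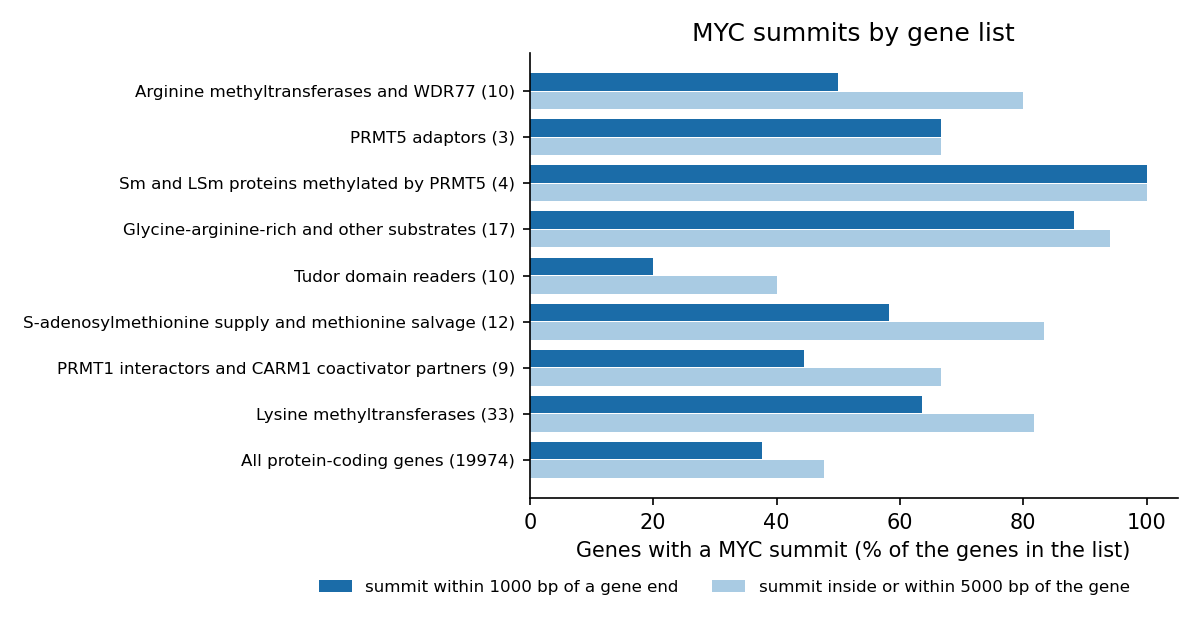
Percent of the genes in each list with a MYC summit within 1000 bp of a gene end (dark bars) and inside or within 5000 bp of the gene (light bars), with the number of genes in brackets and all protein-coding genes in the bottom row (37.6% and 47.7%). The family with WDR77 stands at 50% and 80%, between the Tudor domain readers (20% and 40%) and the Sm and LSm genes (100% for both).

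The lysine methyltransferases, the other large family of enzymes that methylate histones, were set beside the arginine methyltransferases. A summit lay at a gene end in 5 of 10 arginine methyltransferase family genes and 21 of 33 lysine methyltransferase genes, and a peak lay inside or within 5000 bp in 8 of 10 and 27 of 33. Of all protein-coding genes, 37.6% and 47.7% met these rules. The median folds at gene ends were 13.9 in the arginine family and 10.3 in the lysine family. The ranges ran from 2.94 to 23.4 and from 2.61 to 30. The counts and folds of the arginine family include WDR77, which is not itself a methyltransferase and whose fold is the 23.4. Among the arginine enzymes alone the highest fold at a gene end was 18.6 (PRMT3). The lysine methyltransferases highest by −log10 q were SMYD5 (30), KMT2D (18.3) and KMT5B (19.2), and EZH2, the catalytic subunit of a Polycomb complex, named after its value was seen, had a fold of 14.6. Of the lysine enzymes without a summit at an end, SETD2 (23.5), SUV39H1 (14.3) and NSD1 (9.69) had one within 1000 bp of an annotated start inside the span. SETD1B (14.4) had a peak inside the gene, but its starts were not analysed here, and SETD5 and SETDB2 had summits 1081 and 1194 bp outside their spans. KMT2C, EHMT2, ASH1L, SMYD1, KMT5C and PRDM9 had none inside or within 5000 bp. The summits nearest to EHMT2 and PRDM9 lay 1673654 and 4714994 bp away. Whether reads could be placed in these regions was not analysed here, so the lack of a peak at these genes is uncertain. The difference between the families was not tested.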

How the data were processed

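MYC ChIP-Rx libraries (2 IP, 1 input) are represented by 1 peak list. Per the submitters' processing notes, cutadapt, Bowtie2, SAMtools, Picard and MACS2 were used and hg19, mm10 and hg38 are named, and hg38 stands in the name of the deposited file. The authors' deposited values used here are a fold enrichment ratio and a −log10 q-value at the summit; the deposited score was not used. Settings, spike-in scaling, the control and any pooling of IP libraries were not given in the sources used here. Library totals, and so the depth, are unknown.

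From the list, summits were compared with RefSeq spans and promoter starts (GRCh38.p14, chromosomes 1 to 22 and X) in Python 3.11.15 with pandas 2.3.3. The promoter sequences held none from chromosome 8, so no start, motif or CpG count was read for its genes. All 10 members matched by symbol. A gene with several peaks took the one with the highest −log10 q. The calls were checked on planted summits. No test was run, since 1 list holds no replicates. Within each other list the 3 bound genes highest by −log10 q were named by rule, and others were chosen after their values were seen. Members and lists were chosen with earlier results of these data known. Other settings tried were windows, stronger peaks, any base of the peak, and starts alone.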

Additional observations from a re-analysis of the deposited data

How the results depend on the processing

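With the stronger 50% of peaks by −log10 q (at least 47.8), 3 of the 10 members had a summit at a gene end (PRMT3, PRMT7 and WDR77), against 21.3% of protein-coding genes, and 5 had a peak inside or within 5000 bp (PRMT1, PRMT3, PRMT7, PRMT8 and WDR77), against 27.7%. Their median fold at gene ends was then 18.6, and it was 16.2 with a window of 5000 bp, with any base of the peak or with annotated starts only, each of which added PRMT1. With the stronger peaks, 1 Tudor domain reader and 1 of the PRMT1 interactors and CARM1 partners had a summit at a gene end. Tudor readers numbered 1 with a window of 500 bp, against 33% of protein-coding genes, and 4 with one of 5000 bp, against 44%. CACGTG was left in 1 member promoter, that of WDR77, with 100 bases before the start. The other 50 recomputed values stayed within 1.5 times the values reported, or, for the median fold, did not move. Leaving out a library was not possible, since the list has no values per library. No paired analysis was possible because the result comes from no test and the columns carry no replicate numbers. The depth and the scaling limit every fold to a description of this list.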
